A study of Saccharomyces cerevisiae with 3 samples.

Results

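The right ends of chromosomes I and VIII of Saccharomyces cerevisiae carry related blocks of open reading frames (ORFs), and the strain ratios of 10 of these ORFs are described here. They are YAR064W, YAR066W, YAR068W, YAR069C, YAR070C, PHO11 (YAR071W) and YAR073W on chromosome I, and YHR214W, PHO12 (YHR215W) and IMD2 (YHR216W) on chromosome VIII. They were chosen by name with their values in these samples already known, so the values below are a description; p-values of members come from the fit over all ORFs and support nothing on their own. All 10 named ORFs were in the table, which held 6178 ORFs, and all 10 were among the 6123 ORFs with a value in every sample. Of the 10, 7 had an entry in the RefSeq gene table and 3 (YAR069C, YAR070C and YAR073W) had none, and only PHO11, PHO12 and IMD2 carry a gene name there.

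Genomic DNA was compared by array comparative genomic hybridisation, in which the DNA of a pair of strains is labelled with different dyes and hybridised to the same array. The strains were the hybrid R2 IVo, which the labels call intraspecific, and its parents Sc1 (parental strain 1) and Sc2 (parental strain 2). The 3 samples, 1 for each pair of strains, set the hybrid against either parent and Sc1 against Sc2, and each combines duplicate arrays with exchanged dyes. Per the labels all strains went through industrial cultivation and drying, and all DNA was digested with Hinf I. The sources used here give neither genotype, ploidy nor the number of cultures.

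A gene near a chromosome end often has close relatives at other ends, because ends exchange sequence and differ in content between yeast strains. PHO11 and PHO12 encode secreted acid phosphatases, enzymes that free phosphate outside the cell and are made when phosphate is scarce. IMD2 encodes inosine monophosphate dehydrogenase, which catalyses the rate-limiting step towards guanine nucleotides and confers resistance to the drug mycophenolic acid. A probe for such a gene can also take up DNA of its relatives, so ratios of related ORFs are not independent readings. The probe sequences were not used here, and uptake from relatives was not tested.

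All values are log2 ratios with the first-named strain as numerator, after the median over ORFs was subtracted from each sample. Where 3 values of an ORF are listed, the order is hybrid over Sc1, then hybrid over Sc2, then Sc1 over Sc2. The base of the logarithm and the direction common to the 3 samples are readings of the table and the titles, and the opposite direction would turn every sign. An estimate is the limma value that combines the direct sample with the route by way of the remaining strain. Each estimate rests on 3 values with 1 residual degree of freedom, and its error covers the arrays and not the spread between cultures.

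In DNA of Sc1 against Sc2 all 10 ORFs read below 0, by a small amount. The value in this sample ran from −0.31 at YHR214W to −0.054 at PHO11. The median estimate was −0.19, a ratio of 87.6%, while the median over all 6123 ORFs was 0.002. The estimates had an SD of 0.088 among the members, against a median SE of 0.064 for a single member. By limma 0 of 10 members were called at an adjusted p under 0.05 (8 at an unadjusted p under 0.05), where 1.98% of all ORFs were called and 9.57% had an unadjusted p under 0.05. These counts are given as a description, since the members were chosen with these values known. The smallest adjusted p was 0.0891 (limma), and the smallest estimate called anywhere in this comparison was 0.36 in size, which no member reached. With each sample centred on its mode in place of its median, YHR214W (limma adjusted p = 0.0293) and YAR066W (0.031) were called. The share of all ORFs called with that centring is not given here, so nothing is read from these calls.

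**Figure D1:**
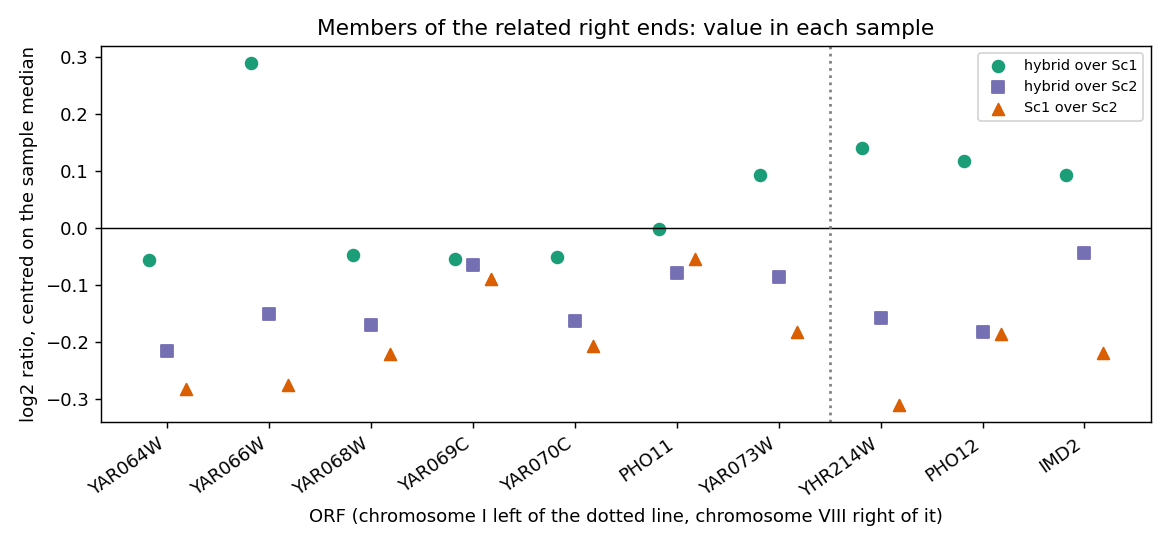
Log2 ratio of each of the 10 ORFs (horizontal axis) in each of the 3 samples, centred on the sample median; each point is 1 sample, with no error bar. All 10 Sc1 over Sc2 values and all 10 hybrid over Sc2 values lie below 0, while the hybrid over Sc1 values run from −0.056 to 0.29.

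The hybrid against Sc2 gave the same side of 0 with a median nearer to it. All 10 members read below 0, from −0.22 at YAR064W to −0.045 at IMD2, and the median estimate was −0.12 (92.0% of the level in Sc2). Over all ORFs the median was −3e-04, and 50.1% of estimates were below 0. Both samples have the strain Sc2 as denominator, so their signs are not separate evidence. By limma 0 of 10 were called (4 at an unadjusted p under 0.05) against 0.915% of all ORFs (7.95% unadjusted), and the smallest adjusted p was 0.314.

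Between the hybrid and Sc1 the members did not share a side. In this sample 5 of 10 were above 0 and 5 below, and the estimates ran from −0.028 at YAR069C to 0.23 at YAR066W with a median of 0.0345. The 5 below 0 were all on chromosome I. All 3 chromosome VIII members were above 0, together with YAR066W and YAR073W of chromosome I. By limma 0 of 10 were called (1, YAR066W, at an unadjusted p under 0.05) against 0.670% of all ORFs (7.99% unadjusted). With members evenly split, the sign of the median carries no weight.

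The first ORFs of the chromosome I block have no gene name. YAR064W, listed as protein-coding, was at −0.056 in the hybrid over Sc1, −0.22 in the hybrid over Sc2 and −0.28 in Sc1 over Sc2. The hybrid thus read close to Sc1, and both read below Sc2. Its estimate against Sc2 was −0.26 ± 0.065 (SE) for the hybrid, the lowest of the 10, and −0.24 ± 0.065 for Sc1.

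YAR068W, which is also protein-coding, was at −0.047, −0.17 and −0.22 in the same order of samples. YAR070C, with no RefSeq entry, was at −0.052, −0.16 and −0.21. These ORFs repeat the order seen at YAR064W, with the hybrid next to Sc1 and Sc2 apart from both. The Sc1 over Sc2 estimates were −0.19 ± 0.064 (SE) for YAR068W and −0.18 ± 0.064 for YAR070C. YAR069C, which lies between them, was nearer to 0 throughout, at −0.054, −0.065 and −0.089. Its Sc1 over Sc2 estimate was −0.063 ± 0.063, with a 95% interval from −0.21 to 0.089.

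YAR066W stood apart from its chromosome I neighbours in the hybrid. It was at 0.29 in the hybrid over Sc1, −0.15 in the hybrid over Sc2 and −0.28 in Sc1 over Sc2. The value against Sc1 was the highest of the 10, while the value against Sc2 was near that of YAR070C. Its estimates were 0.23 ± 0.069 (SE) against Sc1, above 97.8% of all ORFs, and −0.33 ± 0.069 for Sc1 over Sc2, with 2.01% of all ORFs lower. The 3 samples of this ORF also fitted each other least well among the members. The closure, which is the sum of the ratios once around the triangle of strains and would be 0 without error, was 0.17, against a median size of 0.10 over all ORFs.

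YHR214W of chromosome VIII, the counterpart of YAR066W, had the lowest Sc1 over Sc2 value of the members. It was at 0.14, −0.16 and −0.31 in the 3 samples, with a closure of −0.012. The hybrid read between its parents here. The estimates were 0.14 ± 0.061 (SE) for the hybrid over Sc1, −0.16 ± 0.061 for the hybrid over Sc2 and −0.31 ± 0.061 for Sc1 over Sc2. On a scale where Sc1 is 1 and Sc2 is 0, the hybrid was at 0.53. No other member had a Sc1 over Sc2 value of at least 0.3 in size, and none reached 0.5, the size set for giving a position, so this position is shown only as a description.

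The acid phosphatase genes gave different sizes at the 2 ends. PHO11 of chromosome I was at −0.003, −0.079 and −0.054, with a closure of 0.022. All 3 values were close to 0, and its Sc1 over Sc2 estimate, −0.061 ± 0.061 (SE), was the nearest to 0 of the 10. PHO12 of chromosome VIII was at 0.12, −0.18 and −0.19, with a closure of 0.11. Its Sc1 over Sc2 estimate was −0.22 ± 0.065, and its 95% interval of −0.38 to −0.067 overlaps that of PHO11, −0.21 to 0.087. Of PHO11 minus PHO12 the estimate in Sc1 over Sc2 was 0.16 ± 0.089 (SE of the difference), which is less than 2 SE.

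The outermost members, YAR073W and IMD2, read alike. YAR073W was at 0.093, −0.087 and −0.18, with a closure of −0.002. IMD2 was at 0.092, −0.045 and −0.22, with a closure of −0.083. In both the hybrid read between its parents and Sc1 was the lower parent, an order of estimates found in 5 of 10 members and 18.3% of all ORFs. The 95% intervals of the hybrid against either parent spanned both signs in YAR073W and IMD2. The Sc1 over Sc2 estimates were −0.18 ± 0.061 (SE) for YAR073W and −0.19 ± 0.063 for IMD2.

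Over the 3 pairs YAR066W and YHR214W, PHO11 and PHO12, and YAR073W and IMD2, the chromosome I value was set against the chromosome VIII value in each sample. The 9 differences had a median size of 0.042 and ran from 0.001 to 0.15 in size. The sign was shared in 8 of 9, the exception being PHO11 and PHO12 in the hybrid over Sc1. All 10 members were below 0 in the remaining samples, where any pairing of members would share its sign. The count therefore says little about these pairs. None of the 9 differences of estimates exceeded 2 SE, so the pairs could not be told apart at this precision. This does not show that the ends are equal, since an interval on a single estimate spanned 0.15 on either side (median over the members). The median Sc1 over Sc2 estimate was −0.18 for the 7 chromosome I members and −0.22 for the 3 chromosome VIII members.

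Along chromosome I, all measured ORFs from YAR064W outward had Sc1 over Sc2 estimates below 0, while those inward lay on both sides of it. The 3 measured ORFs just inward had Sc1 over Sc2 estimates of 0.051 ± 0.061 (SE, YAR060C), 0.029 ± 0.071 (YAR061W) and −0.088 ± 0.063 (YAR062W). Farther inward FLO1, which encodes a cell wall lectin of flocculation, was called at −0.48 ± 0.074 (limma adjusted p = 0.0321, up to 0.0901 under the alternatives run). YAR052C, next to FLO1, was at −0.16 ± 0.066 and YAR053W at 0.10 ± 0.061. YAR052C and YAR062W were thus lower than the members YAR069C and PHO11, so the estimates show no sharp inner edge of the block. Outward of YAR073W, YAR074C was at −0.090 ± 0.062 and YAR075W at −0.25 ± 0.064. These ORFs were taken as part of the same stretch, though not among the members.

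Along chromosome VIII the 3 ORFs just inward of YHR214W lay nearer to 0 than the members there. Among them, FLO5, a flocculation gene like FLO1, had a Sc1 over Sc2 estimate of −0.070 ± 0.072 (SE), YHR212C was at 0.11 ± 0.061 and YHR213W at −0.022 ± 0.074. Of all 9 measured ORFs from SCH9 up to YHR214W, 7 had estimates below 0 and 2 above it, the lowest being −0.16 at SET5. YHR214W-A, inside the block and not among the 10, was at 0.064, −0.15 and −0.25 in the 3 samples, with an estimate of −0.24 ± 0.062. Its values fall within the range of the members in each sample. Just outward of IMD2, YHR217C was back near 0, at 0.017 ± 0.064.

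Other ORFs of the chromosome VIII end gave Sc1 over Sc2 values far larger in size than those of the members. YHR214C-B, which lies within the block, was called in all 3 comparisons, at 0.49 ± 0.067 (SE) for the hybrid over Sc1 (limma adjusted p = 0.0411, up to 0.12 under the alternatives run), −0.75 ± 0.067 for the hybrid over Sc2 and −1.24 ± 0.067 for Sc1 over Sc2. Its Sc1 over Sc2 value stands in the table as a whole number of size 1000 or more and was read as having lost its decimal point, which the labels do not state. Without ORFs of that kind it has no estimate. The outermost ORFs YHR218W and YHR219W were called for Sc1 over Sc2 at −0.87 ± 0.067 and −0.83 ± 0.061, and for the hybrid over Sc2 at −0.73 and −0.58. In both comparisons the members had values of the same sign and smaller size, and none was called. For YHR214C-B, YHR218W and YHR219W too, uptake from relatives was not tested, so these values may not belong to this end alone.

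**Figure D2:**
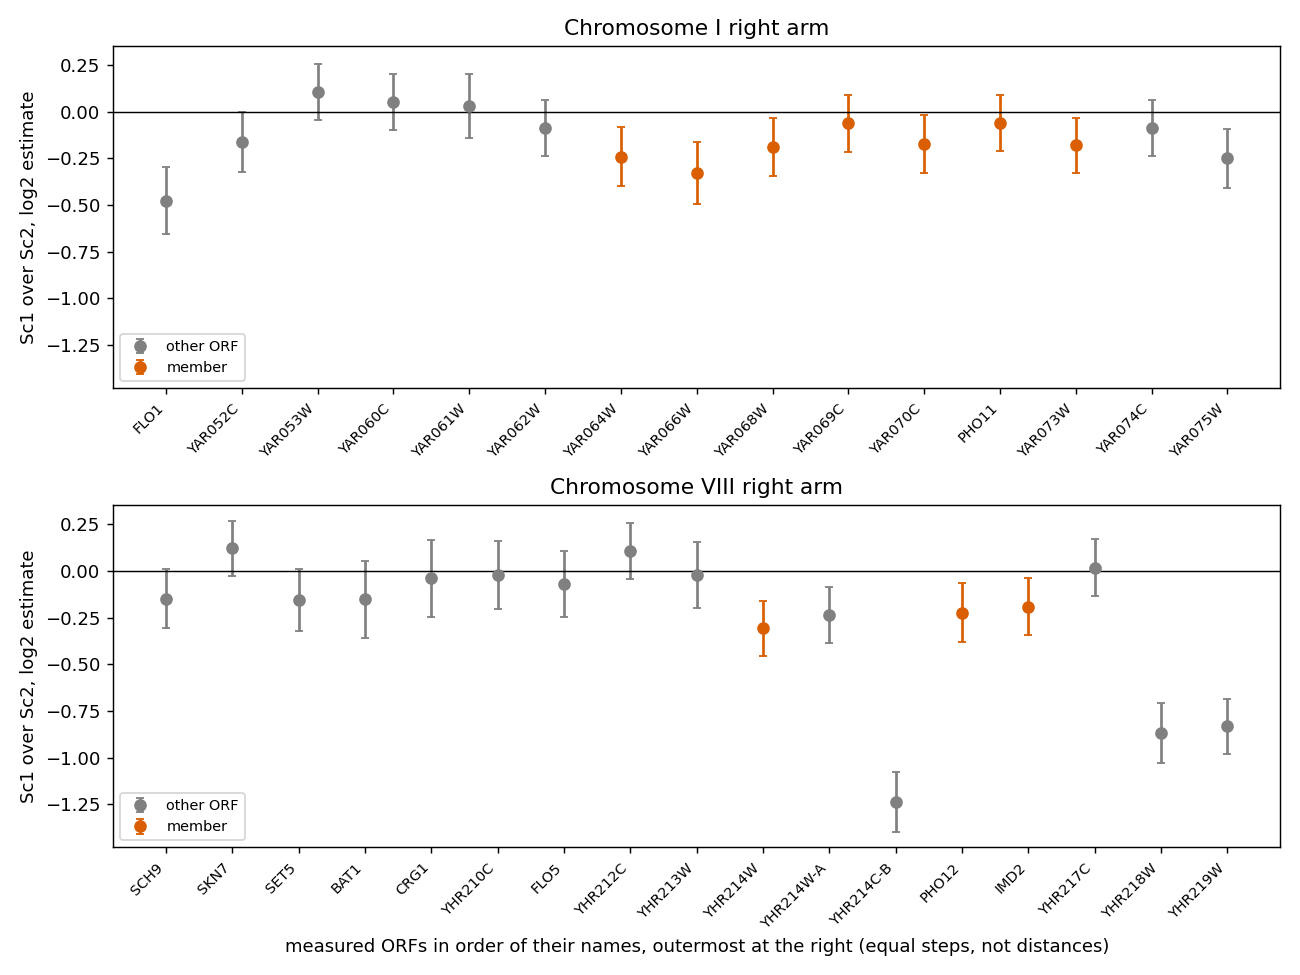
Sc1 over Sc2 log2 estimate with its 95% limma interval for each measured ORF of the chromosome I right arm from FLO1 outward (upper plot) and of the chromosome VIII right arm from SCH9 outward (lower plot), in equal steps in the order of the names. The members (orange) lie between −0.33 and −0.061, and YHR214C-B, YHR218W and YHR219W (grey) lie below −0.8.

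Of the related genes inside other chromosomes, PHO3, PHO5, IMD3 and IMD4 had the signs of PHO12 and IMD2 in each sample. Their sizes differed, and DIA3 did not share these signs. PHO5 on chromosome II, the main phosphate-repressible acid phosphatase gene, was at 0.13, −0.20 and −0.34 in the 3 samples. Its Sc1 over Sc2 estimate of −0.34 ± 0.061 (SE) was lower than that of any member. The 95% interval of PHO5, −0.48 to −0.19, overlaps that of PHO11, −0.21 to 0.087, only narrowly. PHO3, the constitutive acid phosphatase gene beside PHO5, was at 0.090, −0.067 and −0.13, with an estimate of −0.14 ± 0.062. DIA3, a more distant relative of the acid phosphatases, did not follow, at −0.094, 0.12 and −0.021.

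IMD3 and IMD4 encode further forms of inosine monophosphate dehydrogenase. IMD3 on chromosome XII was at 0.097, −0.15 and −0.37, and IMD4 on chromosome XIII at 0.075, −0.11 and −0.22. Their Sc1 over Sc2 estimates were −0.33 ± 0.066 (SE) and −0.21 ± 0.062. In these genes, as in IMD2 and YAR073W, the hybrid was between the parents. None of PHO3, PHO5, IMD3 and IMD4 was called by limma (for Sc1 over Sc2, adjusted p = 0.0622 for PHO5 and 0.0912 for IMD3; 3 of the 4 at an unadjusted p under 0.05). Centred on the mode, PHO5 (limma adjusted p = 0.017) and IMD3 (0.0239) were called for Sc1 over Sc2, again without a share of all ORFs to set beside them.

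In Sc1 over Sc2 the ORFs next to IMD3, IMD4 and PHO5 were closer to 0 than those genes, which did not hold for PHO3. The 6 nearest measured ORFs of IMD3, 3 on each side, had Sc1 over Sc2 estimates from −0.036 to 0.094, and the 6 of IMD4 from −0.083 to 0.12. The 6 ORFs around PHO3 and PHO5 ran from −0.142 (YBR090C) to −0.027. PHO3, at −0.136, lay within this range, and PHO5 lay below it. None of these neighbours was called in any comparison (limma). This look at neighbours was chosen after the values were seen. Whether the interior genes and the ends take up the same labelled DNA was not tested.

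**Figure D3:**
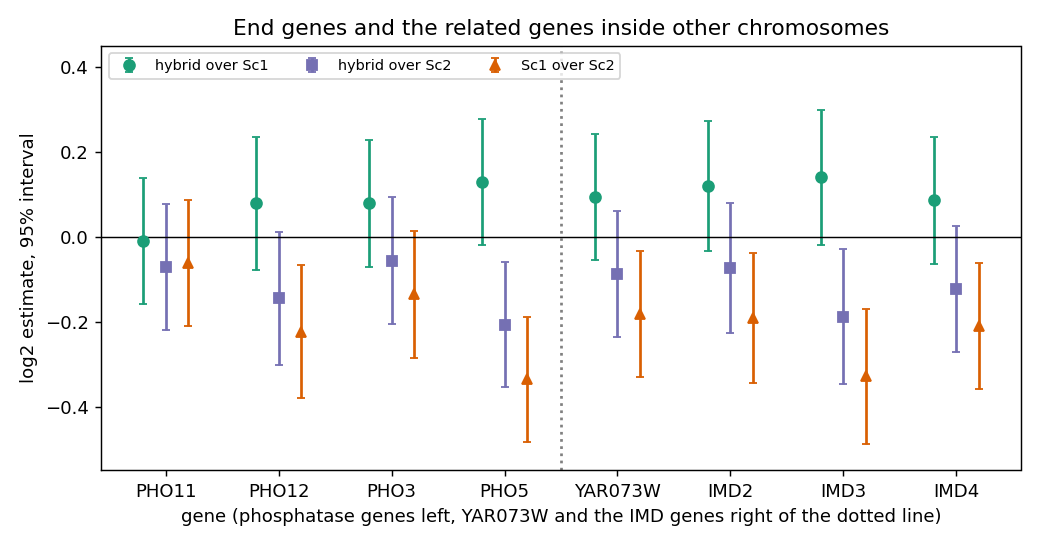
Log2 estimate with 95% limma interval in each of the 3 comparisons for PHO11, PHO12, PHO3 and PHO5 (left) and for YAR073W, IMD2, IMD3 and IMD4 (right). All 8 Sc1 over Sc2 estimates lie below 0, with PHO5 lowest at −0.34 and PHO11 nearest to 0 at −0.061. The Sc1 over Sc2 intervals overlap, but those of PHO5 (upper end −0.19) and PHO11 (lower end −0.21) only narrowly.

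The other genes of phosphate supply did not lie to one side. The list held 31 genes, among them transporters, regulators of the phosphate response and the makers of polyphosphate, and included PHO3 and PHO5. By limma 0 of 31 were called in each of the 3 comparisons (1, 2 and 4 genes had an unadjusted p under 0.05, with the samples in the order above, where 7.99%, 7.95% and 9.57% of all ORFs did). Without PHO3 and PHO5 the median Sc1 over Sc2 estimate was −0.004 over 29 genes, with a range from −0.20 to 0.20. The largest estimates were those of PHO81, an inhibitor of the phosphate-sensing kinase, at 0.19 ± 0.070 (SE) for the hybrid over Sc1, and of PHO89, a phosphate transporter, at −0.21 ± 0.094 for the hybrid over Sc2. For Sc1 over Sc2 it was that of PHO5.

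For guanine nucleotide synthesis and purine interconversion the list held 12 genes, IMD3 and IMD4 included. By limma 0 of 12 were called in each comparison (1, 2 and 2 at an unadjusted p under 0.05, in the same order and beside the same shares of all ORFs). Apart from IMD3 and IMD4, the 10 remaining genes had a median Sc1 over Sc2 estimate of −0.012 and ran from −0.14 to 0.13. ADE13, which encodes adenylosuccinate lyase, had the largest estimate for the hybrid over Sc1, 0.16 ± 0.062 (SE). IMD3 had the largest for the hybrid over Sc2, −0.19 ± 0.066, and for Sc1 over Sc2.

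Profiles like that of the members were found elsewhere in the genome as well. The median profile of the 10 was 0.0445, −0.16 and −0.21 in the 3 samples. The 5 other ORFs nearest to it by Euclidean distance over the 3 samples were PCL6, YLR279W, AIM17, RRP42 and YHR214W-A, at distances from 0.031 to 0.041. Of these, YHR214W-A belongs to the chromosome VIII block. IMD4 was the 11th nearest, at 0.054. Within a distance of 0.10 lay 4 members and 59 of the 6113 other ORFs, so the profile alone does not mark the block.

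Among all 32 chromosome arms, the median Sc1 over Sc2 estimate of the 10 outermost measured ORFs ran from −0.60 on XII right to 0.22 on X right and was below 0 for 17 arms. VIII right, at −0.23, was the 5th lowest and I right, at −0.18, the 6th lowest. All 10 outermost ORFs of I right were below 0, which also held for XII right, and 8 of 10 were below 0 on VIII right. The arms XII right, V left, VI left and X left had lower medians. The set of I right holds all 7 chromosome I members. That of VIII right holds all 3 members there and also YHR214C-B, YHR218W and YHR219W. The members were chosen with these values known, so the medians and counts of these arms partly restate that choice. The arms were compared without a test.

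**Figure D4:**
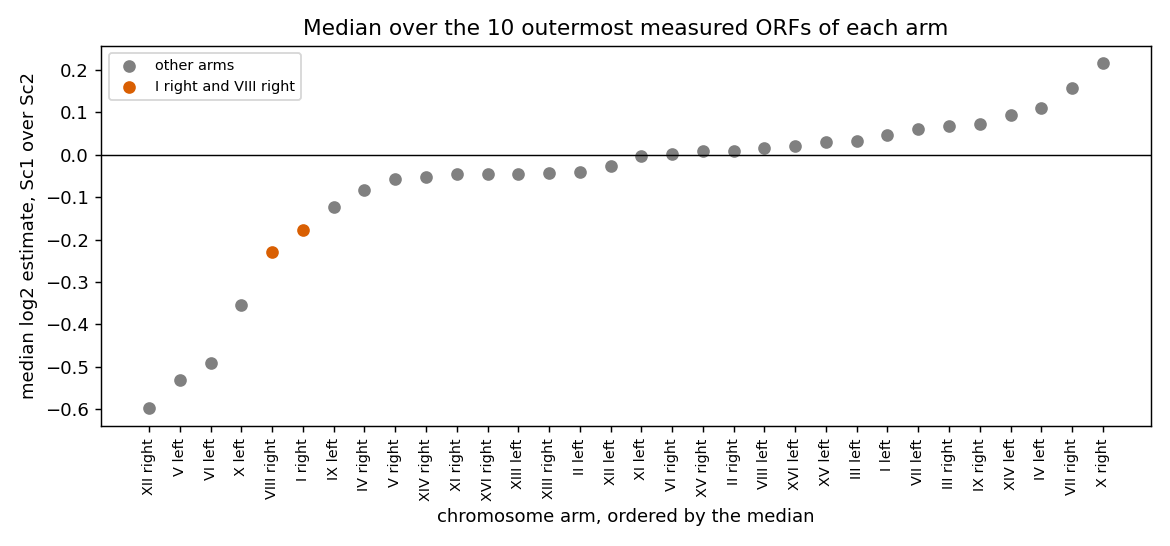
Median Sc1 over Sc2 log2 estimate over the 10 outermost measured ORFs of each of the 32 chromosome arms, ordered from the lowest to the highest. I right (−0.18) and VIII right (−0.23), in orange, follow the 4 lowest arms and lie below the other 26. Both orange medians include members, which were chosen with these values known.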

How the data were processed

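Per the labels, each of the 3 samples is a pair of strains on duplicate dye-swapped arrays. The deposited table gives 1 log ratio per ORF and sample, combined by the authors, with no stated unit (recorded as a score and read as log2). The sources used here name no scanner, background correction, normalisation or probe sequences, so signal over background is unknown and the number of arrays limits the precision. Of 6180 rows, 2 control spots and 55 ORFs with a missing value were left out. In 57 ORFs, none of them a member, 76 whole-number cells of size 1000 or more were read as having lost their decimal point and divided by 1000; the remaining cells were at most 3 in size. The closure had an SD of 0.188 with the directions of the titles and of 0.286 to 0.416 with a sample turned.

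Samples were centred on their medians, and limma 3.58.1 (R 4.3.3, lmFit and eBayes, Benjamini-Hochberg over 6123 ORFs) fitted the triangle of strains. The fit was tested on simulated data with differences far larger than those of the members, so it says nothing about differences of their size. Named were all members, their relatives, the nearest and the called flanking ORFs, the called or largest gene of each pathway list, and the 5 nearest profiles. Members and lists were chosen with earlier results of these data known. Chromosome and order were read from systematic names, and symbols from RefSeq (assembly R64). No coordinates are given because these sources name no build for the arrays. No sequence was used here, so the identity of the paired ORFs was not computed and the pairs follow general knowledge of the 2 ends. Alternatives were other centrings, moderations and priors, ORFs with restored decimals left out, and each path of the triangle alone.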

Additional observations from a re-analysis of the deposited data

How the results depend on the processing

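The median over the 10 members stayed below 0 for Sc1 over Sc2 (−0.21 to −0.15) and for the hybrid over Sc2 (−0.16 to −0.12) under all alternatives run, while for the hybrid over Sc1 it ran from −0.010 to 0.076. The counts of called members stayed at 0 except for Sc1 over Sc2 with samples centred on their mode, where 2 were called, YHR214W (limma adjusted p = 0.0293, with 0.0891 in the reported fit and at most 0.163) and YAR066W (0.031, with 0.104 and at most 0.204). The same centring called 1 phosphate gene, PHO5, and 1 purine gene, IMD3. It moved the median of all ORFs by −0.015. The share of all ORFs called with mode centring is not given here, so nothing is read from these calls. Of 22 flanking ORFs 1 was called for the hybrid over Sc1 in the reported fit, where 0.670% of all ORFs were called. The count was 2 with mode centring and 0 without centring, with a prior of 4 degrees of freedom, or without ORFs with restored decimals. The shares of all ORFs called under these alternatives are not given here either, so nothing is read from these counts. FLO1 for Sc1 over Sc2 reached an adjusted p of 0.0901 at its highest. Estimates of single members changed sign under at least 1 alternative for 4 members in the hybrid over Sc1, for 1 (YAR066W, 0.014 by the indirect path) in the hybrid over Sc2 and for 0 in Sc1 over Sc2. At a least size of 0.3 for a position, 1 member qualified. The cause of these changes was not tested. No paired analysis was possible because each pair of strains has 1 sample. The medians with 3 further ORFs of the block (YAR074C, YAR075W and YHR214W-A) and without YAR066W were added after seeing the data.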
